A study of Mus musculus with 12 samples.

Results

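Wild type mouse embryonic fibroblasts given tunicamycin for 12 h were compared with the same cells left untreated, for every mouse miRNA on the array. The comparison used 4 arrays of the 12 in the series, 2 untreated and 2 treated. They were chosen by the genotype, treatment and time in the sample labels. The cells were embryonic fibroblasts of C57BL/6 background carrying intact ATF6a (labelled ATF6aWT), cultured in DMEM with fetal bovine serum and 2-mercaptoethanol. The treated cultures received 2 ug/mL tunicamycin in that medium for 12 h, and no vehicle is named for the untreated ones. The series text calls the 2 replicates of a condition independent experiments, and the embryos or lines behind them are not given in the sources used here. The array carried probes for 611 mouse and 39 viral miRNAs. Of the mouse miRNAs, 174 had a probe well above background in both replicates of some group of the series and were tested, and 437 did not pass that filter. With 1 viral name, 175 miRNAs entered the fit.

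Tunicamycin blocks N-linked glycosylation, so that glycoproteins misfold in the endoplasmic reticulum. Cells answer with the unfolded protein response, which runs through the sensors PERK, IRE1 and ATF6. ATF6a is held in the membrane of the endoplasmic reticulum and is cut in the Golgi to release a transcription factor that raises chaperones. A miRNA guides the Argonaute complex to messenger RNAs that pair with its seed, the bases at positions 2 to 8 from its 5′ end, and lowers their translation or stability. miRNAs of one seed form a family with shared targets, and miRNAs of one primary transcript form a cluster. Fibroblasts are known for high miR-21, miR-199a, miR-214 and let-7. The comparison addresses which miRNAs respond to the drug when ATF6a is present.

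The mature sequences below carry the results: relatives that share a seed and differ by a few other bases, and the clusters whose members changed together. Capitals mark the seed. The sequences come from RefSeq (GRCm38.p6), which matched 147 of the 175 tested names.
let-7i: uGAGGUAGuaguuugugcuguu
let-7g: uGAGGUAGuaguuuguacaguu
let-7e: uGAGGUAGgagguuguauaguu
miR-26a: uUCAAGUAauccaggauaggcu
miR-26b: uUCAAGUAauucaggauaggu
miR-99a: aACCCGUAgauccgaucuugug
miR-100: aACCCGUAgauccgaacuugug
miR-99b: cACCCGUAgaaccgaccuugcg
miR-27a: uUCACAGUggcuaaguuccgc
miR-27b: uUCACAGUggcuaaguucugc
miR-130a: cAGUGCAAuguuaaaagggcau
miR-19a: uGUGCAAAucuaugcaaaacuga
miR-19b: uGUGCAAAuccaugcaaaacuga
miR-20a: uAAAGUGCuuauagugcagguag
miR-92a: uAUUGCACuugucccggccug
miR-25: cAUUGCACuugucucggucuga
miR-199a-5p: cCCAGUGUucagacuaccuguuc
miR-199a-3p: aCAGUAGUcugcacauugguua
miR-214: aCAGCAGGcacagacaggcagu
miR-21: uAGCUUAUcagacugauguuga
miR-127: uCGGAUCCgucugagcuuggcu
miR-379: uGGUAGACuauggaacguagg
miR-1224: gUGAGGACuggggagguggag
miR-574-5p: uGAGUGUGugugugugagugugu
miR-467f: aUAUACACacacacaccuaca

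A level here is the log2 of a miRNA's background-subtracted signal divided by its array's 75th percentile, so that 0 stands for a signal equal to that percentile. Levels of different miRNAs are not set against each other, since probes differ. Values below a floor of -5.02 were set to it, the median over the 12 arrays of each array's lowest signal well above background. That lowest signal was -5.03 and -5.09 on the untreated arrays, -5.02 on treated replicate 1 and -3.67 on treated replicate 2. Levels of treated replicate 2 between the floor and -3.67 were used as read, though they lay under that array's lowest detectable signal. A change is the treated minus the untreated mean, with its SE from limma and n = 2 arrays a group, and a miRNA rose or fell where the Benjamini-Hochberg adjusted p over 175 miRNAs was under 0.05. A miRNA is called measured where all 4 arrays showed it well above background and none of its used probes lay at the floor. The untreated pair was hybridised on 1 slide and the treated pair on a second one, and the effects of drug and slide cannot be told apart. Each of the 4 arrays was scanned on a date of its own, which cannot be told apart from drug or replicate either. Between 160 and 168 miRNAs were well above background on the untreated arrays, and 137 and 144 on the treated ones. Replicates differed from each other with an SD across miRNAs of 0.204 in the untreated and 1.12 in the treated pair, and the median size of that difference was 0.0641 and 0.169. The number of arrays limits the precision of every value.

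The fibroblast label was checked against 6 defining miRNAs, of which 5 were well above background on each of the 4 arrays. The sixth, miR-145, was not well above background on any of them. The summed scaled signal of the list was 33.5 and 31.1 on the untreated and 14.96 and 15.8 on the treated arrays. The brightest member, miR-21, weighs most in that sum. Its change read 0.12 after quantile normalization, which gives the top-ranked probes of every array the same values. None of the haematopoietic (6), epithelial (7), endothelial (2) or neural (4) markers was well above background on any of these arrays. On treated replicate 2 alone, 1 of 4 muscle and 2 of 11 pluripotency markers were, at a summed signal of 0.119 and 0.324. In such bulk RNA, fewer cells of a type and less RNA per cell cannot be told apart.

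After 12 h, more miRNAs were lower than higher. Of the 175 tested, 67 fell (38.3%) and 11 rose (6.29%), 78 in all (44.6%; limma, adjusted p under 0.05). Both treated arrays lay below both untreated ones for 97 miRNAs (55.4%) and above them for 33 (18.9%). The median change over all tested miRNAs was -0.27, and it was -0.26 on treated replicate 1 and -0.30 on replicate 2. Of the 84 measured miRNAs, 22 fell and 8 rose (35.7% in all), with a median of -0.15. The other calls lay near background: 24 of the 67 falls were well above background on both untreated arrays and on 1 treated array, 18 on the untreated arrays only, and 3 on all 4 arrays with a probe at the floor. In 37 of the 78 calls a used probe lay at the floor on at least 1 array, where floored values add no spread. A miRNA that passed the filter through its untreated arrays alone was more open to a fall than to a rise.

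These counts depended on how arrays were scaled and how background was removed. limma called 10 miRNAs (0 higher, 10 lower) after quantile normalization and 5 (1 higher, 4 lower) with normexp. With each array scaled on all its probes limma called 0, and 13 stood at an unadjusted p under 0.05. The 75th percentile over all probes was 3.73 and 3.23 on the untreated and 3.95 and 9.50 on the treated arrays. Over the 87 probes used here it was 373 and 418 on the untreated and 567 and 337 on the treated arrays. Scaling on all probes thus divided each array by a signal near background.

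**Figure D1:**
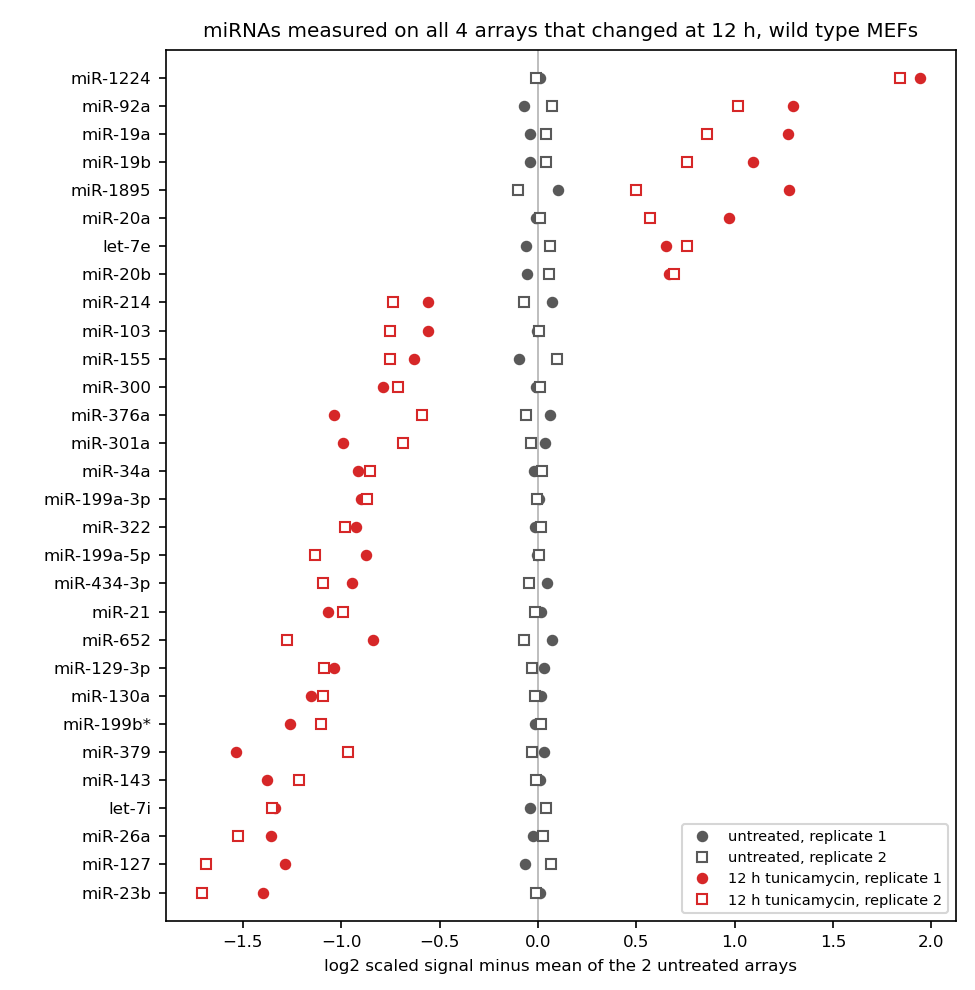
Level on each of the 4 arrays (x axis, log2, minus the mean of the 2 untreated arrays) for the 30 measured miRNAs that changed at 12 h (y axis), with untreated arrays in grey and treated arrays in red, circles for replicate 1 and squares for replicate 2. The grey points of every miRNA shown lie close to 0, 22 miRNAs have both red points to their left and 8 to their right.

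let-7i, a member of the let-7 family that restrains proliferation and is raised on differentiation, was among the measured miRNAs that fell. It stood at 0.59 and 0.67 on the untreated arrays and at -0.71 and -0.72 on the treated ones. Both pairs were tight and far apart, and the change was -1.34 ± 0.14, or 2.54-fold lower (limma, adjusted p = 0.000378). let-7i was below 0 in each of the 22 alternative settings, from -2.02 to -1.09, and passed in 20.

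No other tested member of the let-7 family fell. let-7e stood at -0.67 and -0.55 in untreated and at 0.04 and 0.15 in treated cells. Both treated arrays were higher, and let-7e rose by 0.70 ± 0.22 (limma, adjusted p = 0.0325). It kept its sign in 22 settings but passed in 9 of them. The other 7 family members ranged from -0.37 for let-7c to 0.36 for let-7b and did not pass. The median change of the 9 was 0.11, beside -0.27 over all tested, and it turned to -0.43 when arrays were scaled on all probes. All 9 share the seed GAGGUAG, and let-7i differs from let-7g at 2 positions and from let-7e at 5. let-7g, at -0.29 ± 0.18, did not pass. Cross-hybridisation between family members was not tested, and probes of near-identical miRNAs can share signal. RefSeq places let-7i alone on chromosome 10, at chr10:122985698-122985719 on the minus strand, and let-7e on chromosome 17 within the span of Spaca6.

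miR-26a, which lies within the phosphatase genes Ctdspl and Ctdsp2 and is known as a brake on the cell cycle, stood at -1.55 and -1.50 without and at -2.88 and -3.05 with tunicamycin. The groups were separate, and miR-26a changed by -1.44 ± 0.20 (limma, adjusted p = 0.00138). Its relative miR-26b, from Ctdsp1, has the same seed and differs at 2 positions. It stood at -3.02 and -3.02 against -3.38 and -3.39, and its change of -0.36 ± 0.21 did not pass.

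Several miRNAs marking mesenchymal cells fell. Of 14 on the list, 13 were tested, 8 fell and none rose, beside 38.3% lower over all tested miRNAs, and the median was -0.75 beside -0.27. limma called 1 of them after quantile normalization (median -0.65), 2 with normexp (-0.48) and 0 with scaling on all probes (-1.32). miR-21, encoded within Vmp1 and abundant in growing fibroblasts, stood at 4.60 and 4.56 untreated and at 3.51 and 3.59 treated. That is a change of -1.03 ± 0.18 (limma, adjusted p = 0.00338), which read 0.12 after quantile normalization. That setting equalizes the top-ranked probes of all arrays, so it cannot show the change of so bright a miRNA. The change was below 0 in the other 21 settings.

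The miR-199a and miR-214 genes lie together in Dnm3os, a non-coding transcript that runs antisense within Dnm3 and is needed for skeletal growth. All 3 tested products of that locus fell. miR-199a-3p stood at 1.25 and 1.24 untreated against 0.34 and 0.37 treated, a change of -0.89 ± 0.14 (limma, adjusted p = 0.00224). For miR-199a-5p, from the other arm of the hairpin, the levels were -1.29 and -1.28 against -2.16 and -2.42, and the change was -1.005 ± 0.234. Both arms thus moved by similar amounts, and neither treated pair overlapped the untreated one. miR-214 changed by -0.65 ± 0.19. A second copy of miR-199a lies within Dnm2, and the array cannot tell the copies apart. miR-199b*, of the related hairpin, changed by -1.18 ± 0.17.

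miR-143, made with miR-145 from one transcript and typical of smooth muscle and fibroblasts, stood at -1.95 and -1.97 against -3.34 and -3.17. It changed by -1.30 ± 0.27 (limma, adjusted p = 0.0068). Of its partner no change can be given, since miR-145 was not well above background. The remaining falls of the list were miR-34a, miR-152 and miR-10b. Those that did not pass were miR-22 at -0.66, miR-140* at -0.58, miR-140 at -0.43, miR-10a at 0.05 and miR-31 at 0.22.

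miR-10a and miR-10b, from the Hoxb and Hoxd gene clusters, differ at 1 base outside the seed. miR-10a stood at -3.13 and -3.08 against -3.16 and -2.94, a change of 0.05 ± 0.14. miR-10b was well above background on 1 treated array, at -3.78 and -3.67 against -4.45 and -4.50, a change of -0.75 ± 0.17 (limma, adjusted p = 0.01). The difference between the changes of the miR-10 pair was not tested.

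Among 20 miRNAs listed for links to endoplasmic reticulum stress, 11 were tested, 5 fell and none rose, beside 38.3% lower over all tested miRNAs. The median of the list was -0.39, beside -0.27. miR-34a, a transcriptional target of p53, stood at -1.16 and -1.12 untreated and at -2.06 and -1.99 treated. It changed by -0.88 ± 0.10 (limma, adjusted p = 0.000753), while miR-34b-5p at -0.26 and miR-34c at -0.09 did not pass. miR-322, a seed relative of miR-16 that is encoded on the X chromosome, changed by -0.95 ± 0.14, and miR-15a, miR-15b and miR-16 ranged from -0.30 to -0.07 without passing. The other 3 that fell were miR-199a-5p and miR-214, given above, and miR-222. miR-222 lay at the floor on both treated arrays and its change turned to 0.0248 with normexp. miR-17, miR-204, miR-211, miR-708 and miR-30c-2* of the list were not tested.

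miR-130a and miR-301a share the seed AGUGCAA, and miR-301a is encoded within Ska2. miR-130a stood at 0.26 and 0.23 untreated and at -0.91 and -0.85 treated, a change of -1.12 ± 0.19 (limma, adjusted p = 0.00299). miR-301a went from -2.07 and -2.14 to -3.09 and -2.79, a change of -0.84 ± 0.16. The third tested member, miR-130b, was near the floor and changed by -0.63 ± 0.21. Of 23 seed families with 2 or more tested members, every tested member fell in 2, beside 38.3% lower over all tested miRNAs. This family was 1 of them. The other was miR-148a at -1.62 and miR-152 at -0.79, neither measured on all 4 arrays. miR-155, an inflammation-linked miRNA, went from -2.76 and -2.57 to -3.29 and -3.42 and fell by 0.69 (limma, adjusted p = 0.00819). miR-103, from introns of Pank genes, fell by 0.66, while miR-107, which differs from it at 1 position, changed by -0.10 ± 0.16.

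Members of the miR-17-92 cluster rose. It is a polycistron on chromosome 14, induced by MYC and known to promote proliferation and survival. miR-92a stood at -1.97 and -1.82 untreated and at -0.60 and -0.88 treated, a change of 1.16 ± 0.25 (limma, adjusted p = 0.00819). miR-19a changed by 1.06 ± 0.22 from -3.26 and -3.19 to -1.95 and -2.37, and miR-19b by 0.92 ± 0.18 from -1.60 and -1.52 to -0.47 and -0.81. Both miR-19 sequences differ at 1 base and share the seed GUGCAAA.

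miR-20a rose by 0.77 ± 0.21, from -2.01 and -1.98 to -1.03 and -1.43. In the same polycistron miR-18a at 0.54 ± 0.34 and miR-17* at 0.32 ± 0.31 did not pass, and miR-17 itself was not tested. All 6 tested products of the chromosome 14 locus had both treated levels above both untreated levels, beside 18.9% over all tested miRNAs. The X-linked paralogous cluster, which also encodes miR-19b and miR-92a, gave a rise of miR-20b by 0.68 ± 0.11, from -3.56 and -3.46 to -2.85 and -2.82.

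The third paralogous cluster lies within Mcm7 on chromosome 5. miR-106b changed by -0.23 ± 0.26, miR-93 by -0.39 ± 0.31 and miR-25 by -0.17 ± 0.17, and none passed. miR-25 and miR-92a share the seed AUUGCAC and differ at 3 positions. Over the 9 tested members of the list of these 3 clusters, which does not hold miR-17*, 5 rose and none fell. Of all tested miRNAs 6.29% rose and 38.3% fell. The median of the 9, beside -0.27 over all tested, was 0.68. That median was 0.094 when scaled on all probes, 0.20 after quantile normalization and 0.36 with normexp, and in none of these did limma call a member.

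**Figure D2:**
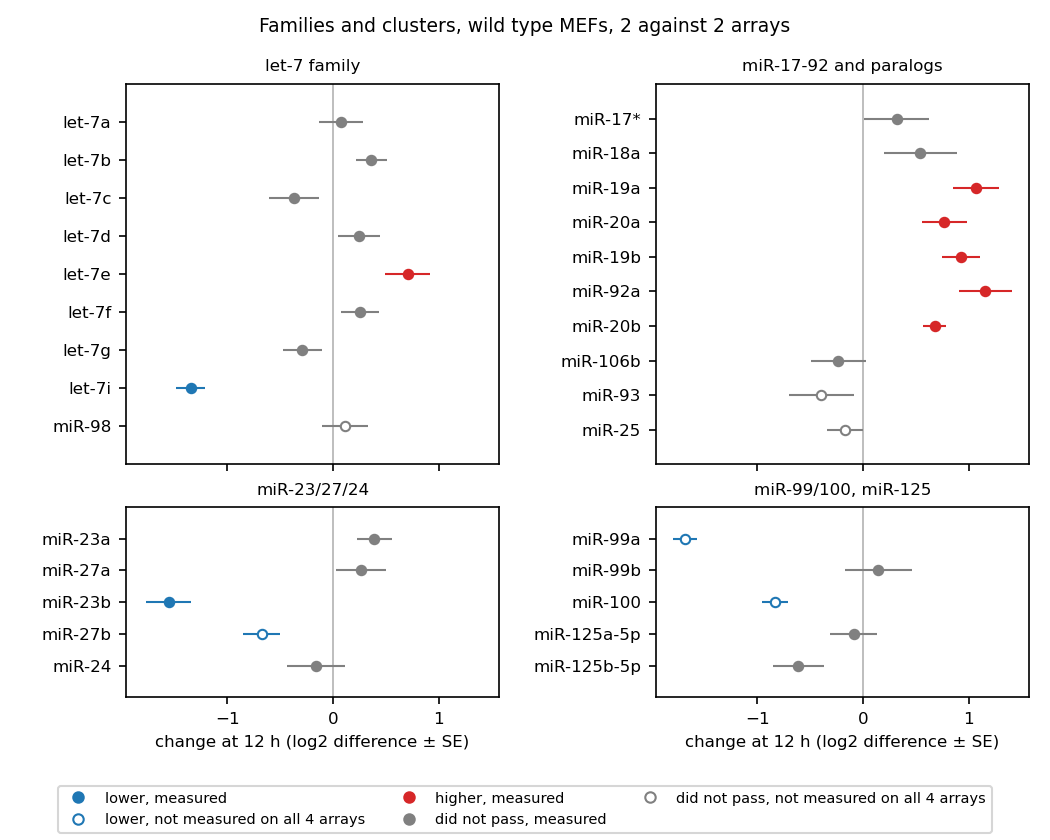
Change at 12 h (x axis, log2 difference ± SE, 2 treated against 2 untreated arrays) of members of 4 groups (y axis, 1 panel each), red where higher and blue where lower by limma, grey where the test did not pass, and open where not measured on all 4 arrays. let-7i lies at -1.34 and let-7e at 0.70 in the first panel, and the 6 products of the miR-17-92 cluster lie above 0 while those of the Mcm7 cluster lie below.

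miR-23 and miR-27 are widely expressed miRNAs that occur in a cluster on chromosome 8 and in a second one within Aopep on chromosome 13. miR-23b, of the latter, went from -1.93 and -1.95 to -3.34 and -3.65, a change of -1.55 ± 0.21 (limma, adjusted p = 0.00123). Its neighbour miR-27b changed by -0.68 ± 0.18, near the floor. From the chromosome 8 cluster, miR-23a at 0.39 ± 0.17 and miR-27a at 0.26 ± 0.23 did not pass, with levels of -0.23 and -0.21 against 0.21 and 0.14 for miR-23a. miR-24, made by both clusters, changed by -0.16 ± 0.27. miR-27a and miR-27b differ at 1 position. The difference between the clusters was not tested.

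miR-99a and miR-100 share a seed, differ at 1 position and are known to restrain mTOR. miR-99a stood at -3.39 and -3.28 untreated and in treated cells neither array showed it well above background. Set against the mean of the treated arrays' lowest detectable signals, -5.02 and -3.67, this is a fall of at least 2.01-fold. limma gave it an adjusted p of 5.27e-05 with both treated values at the floor. miR-100 changed by -0.83 ± 0.12, near the floor on the treated arrays. miR-99b, of another cluster, changed by 0.15 ± 0.32. Of the neighbours, let-7c beside miR-99a changed by -0.37 ± 0.24 and let-7e and miR-125a-5p beside miR-99b by 0.70 and -0.09. miR-125b-5p changed by -0.61 ± 0.24 and did not pass.

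Of 4 tested products of the miR-29 family, which represses collagen genes, miR-29a at -0.27 ± 0.21 and miR-29b at -0.10 ± 0.14 did not pass, and the passenger strand miR-29b* fell by 0.89 without being measured on all 4 arrays. In the miR-30 family 1 of 6 fell, miR-30e at -0.70 ± 0.22, while miR-30a at -0.43 and miR-30d at -0.45 did not pass. miR-652, within Tmem164, went from -1.97 and -2.11 to -2.88 and -3.31 and fell by 1.06. miR-210, which is induced by hypoxia, stood at -3.86 and -3.83 untreated and at the floor on both treated arrays. Its fall passed. No fold is given, since its untreated mean of -3.84 lay below the lowest detectable signal of treated replicate 2, -3.67.

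The broadest set of falls came from the Dlk1-Dio3 region of chromosome 12, an imprinted domain whose miRNAs are made from the maternal chromosome. Of 74 miRNAs listed for it, 33 were tested, and 27 fell while none rose, beside 38.3% lower over all tested miRNAs. The median change was -0.70, beside -0.27 over all tested and -0.14 over the tested miRNAs outside the list. Only 10 of the 33 were measured, with a median of -0.62. Of these, miR-127, miR-434-3p, miR-379, miR-376a and miR-300 fell, beside 22 of all 84 measured miRNAs. Another 10 were well above background in only 1 of the 2 groups. The filter leans to falls where a miRNA passed it through its untreated arrays alone, which limits the count of 27. With miRNAs lost to background set at their bound, the median over 33 was -0.50, and with normexp it was -0.13 and limma called none. After quantile normalization the median was -0.69 with 5 calls. Both treated arrays lay below both untreated ones for 30 members, beside 55.4% over all tested.

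miR-127, which is encoded antisense to the imprinted gene Rtl1, stood at -2.03 and -1.90 untreated and at -3.25 and -3.65 treated. The groups were well apart, and the change was -1.49 ± 0.19 (limma, adjusted p = 0.00115), with both of its probes lower. miR-434-3p, of the same stretch, went from -2.85 and -2.95 to -3.84 and -3.99, a change of -1.02 ± 0.10, and its partner arm miR-434-5p changed by -1.33. Neighbours miR-433 at -1.34, miR-136 at -1.18 and miR-431 at -0.64 fell too, without being measured on all 4 arrays.

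In the long array of hairpins that begins with miR-379, miR-379 itself went from -1.23 and -1.29 to -2.79 and -2.23, a change of -1.25 ± 0.25 (limma, adjusted p = 0.00575). miR-376a changed by -0.81 ± 0.18 and miR-300 by -0.75 ± 0.11, both measured. miR-495 was not well above background on the treated arrays and was at least 2.18-fold lower, and miR-410, at the far end, changed by -1.38 ± 0.19. Among hairpins with both arms tested and matched to RefSeq, both arms fell in 6, neither passed in 4 and 1 of the 2 fell in 2. Copies that share an arm were counted as 1 hairpin, and 38.3% of all tested miRNAs were lower. Of the 6, miR-154, miR-337, miR-376a, miR-409 and miR-434 belong to this region and miR-199a does not. Only miR-199a had both arms measured.

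The members of the region that did not pass were miR-411*, miR-299*, miR-329, miR-377, miR-376c and miR-494. miR-494 stood at -4.93 and -4.71 untreated and at -1.48 and -3.41 treated. Its treated arrays were both higher, with replicate 2 at -1.93 from replicate 1, and the change of 2.37 ± 0.83 did not pass (limma, adjusted p = 0.0514). miR-376c went from -3.44 and -3.43 to -4.00 and -1.85, so that its treated arrays lay on either side of the untreated ones.

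**Figure D3:**
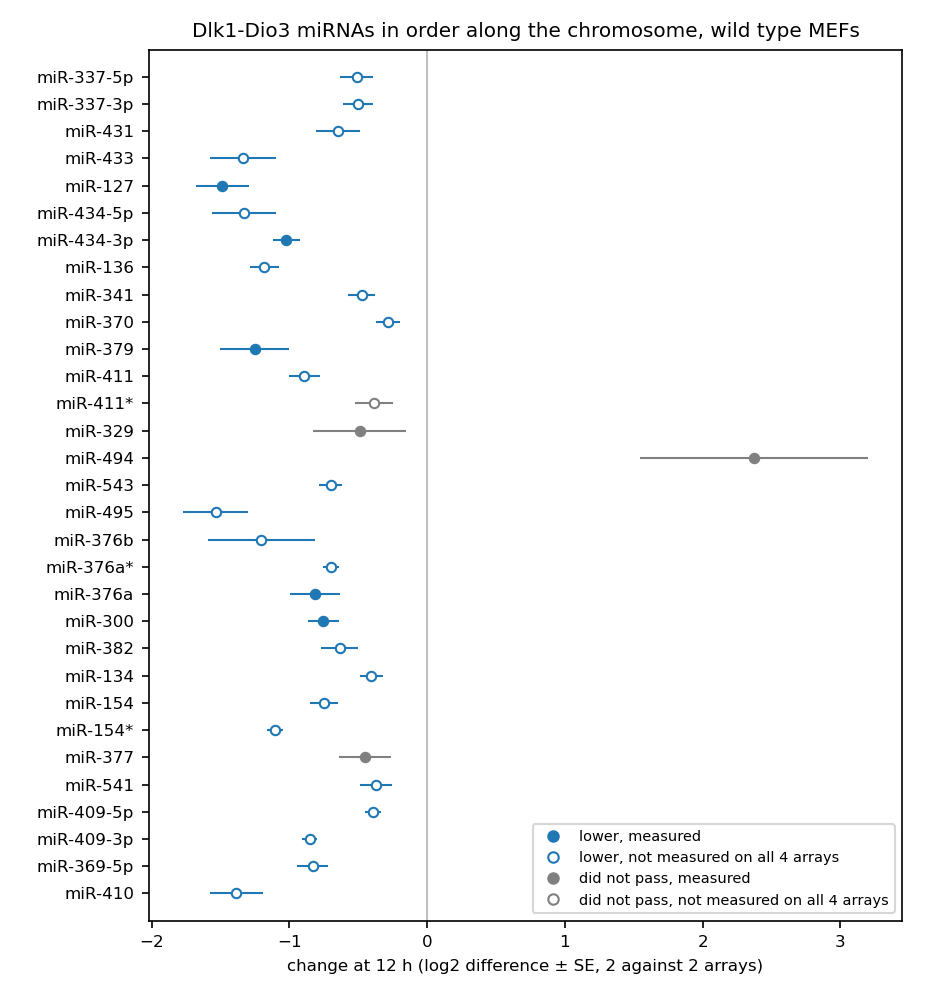
Change at 12 h (x axis, log2 difference ± SE, 2 against 2 arrays) of the Dlk1-Dio3 miRNAs placed by RefSeq, in order along the chromosome from top to bottom (y axis), blue where lower by limma, grey where the test did not pass, open where not measured on all 4 arrays. All but miR-494, at 2.37, lie below 0.

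Beyond the miR-17-92 and X-linked clusters and let-7e, the measured rises were miR-1224 and miR-1895, both of high GC content. miR-1224, a mirtron spliced from an intron of Vwa5b2, stood at -3.02 and -3.04 untreated and at -1.09 and -1.19 treated. With tight pairs, it showed the largest measured rise, 1.89 ± 0.26 or 3.71-fold (limma, adjusted p = 0.00123). It was higher in all 22 alternative settings, from 1.09 to 1.95, and passed in 19. miR-1895 went from -4.07 and -4.27 to -2.90 and -3.68, a change of 0.89 ± 0.29 (limma, adjusted p = 0.0408), and passed in 8 of 21 settings. Among 70 measured miRNAs with a sequence, GC content and change had a Spearman's rho of -0.05 across miRNAs, which are not independent.

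The array also names miRNAs that derive from abundant RNAs, and 3 of these were tested. miR-689 lay at the floor on both untreated arrays, and 1 treated array showed it well above background. Its change of 1.00 counts from the floor. No bound on the fold is given, since the second treated array did not show it well above background. miR-690 stood at -4.02 and -4.00 against -3.62 and -2.475, a change of 0.96 ± 0.44 that did not pass, and miR-720 changed by 0.10. Their part in the other results was not tested.

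Treated replicate 2 stood apart for a set of miRNAs. On that array 16 of the 175 were more than 2 log2 units above treated replicate 1, by 2.15 to 4.90, and 1 was as far below. None of the 16 passed. Their names were 10 of the miR-297, miR-466, miR-467 and miR-669 list, with miR-574-3p, miR-574-5p, miR-1187, miR-877*, miR-376c and 1 viral name. miR-574-5p stood at -2.23 and -2.72 untreated, at -2.26 on treated replicate 1 and at 0.01 on replicate 2. For miR-467f these levels were -3.38, -4.00, -3.25 and 0.11. All treated replicate 2 arrays of the series shared a scan date. In the other treated groups, lowest signals well above background were -3.10 to -2.87 on replicate 2 and -5.50 to -4.75 on replicate 1. In the 12 h knockout pair the replicate difference had an SD of 1.19. At 24 h it was 0.715 in wild type and 0.801 in knockout cells. A part of the scan date in the pattern was not tested.

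Of 5 of the 16 with a RefSeq sequence, 4 hold UGUGUG or ACACAC, as read along the mature strand. These motifs occur in 39 of 1679 RefSeq mature names (2.32%) and in 7 of the 147 tested miRNAs with a RefSeq sequence. Of the 7 tested and matched miRNAs that hold one, the difference between the treated arrays ran from 0.00 to 4.90, beside a median of -0.01 over 140 without. The median change of 11 tested members of the miR-297, miR-466, miR-467 and miR-669 list was 0.35 on treated replicate 1 and 4.07 on replicate 2, beside 2.12 for the mean of both arrays.

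**Figure D4:**
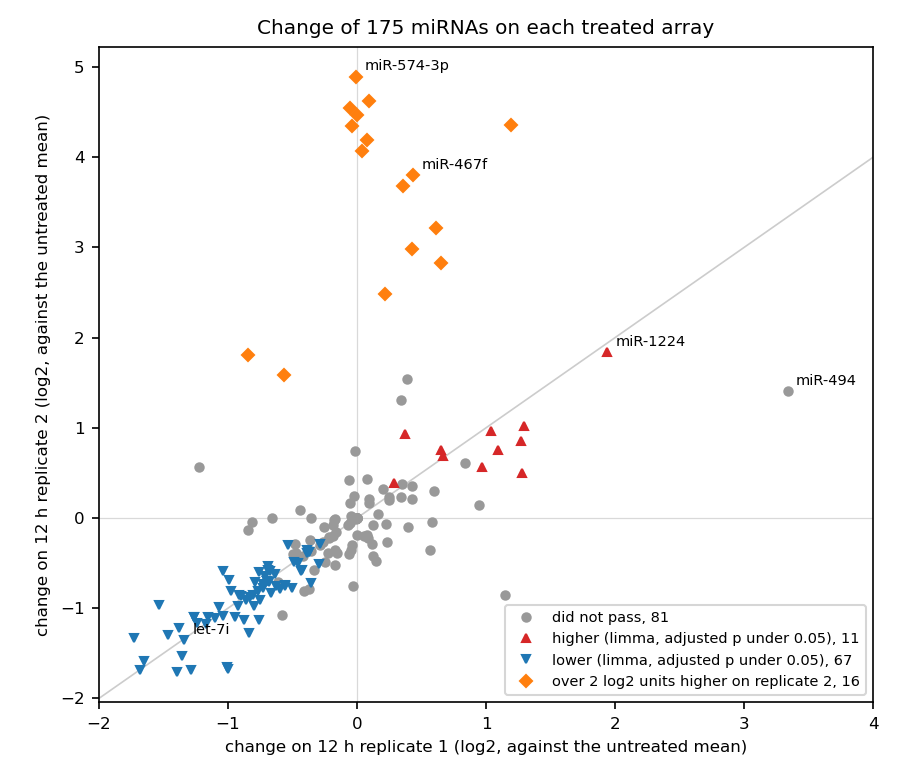
Change of 175 miRNAs against the untreated mean on treated replicate 1 (x axis, log2) and treated replicate 2 (y axis, log2), blue where lower and red where higher by limma, grey where the test did not pass, with the line of equal change. The 16 orange points lie more than 2 log2 units higher on replicate 2, while let-7i and miR-1224 lie next to the line.

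Without treated replicate 2 limma called 63 miRNAs (10 higher, 53 lower), of which 60 were among the 78. Without treated replicate 1 it called 66, of which 63 were shared.

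**Figure D5:**
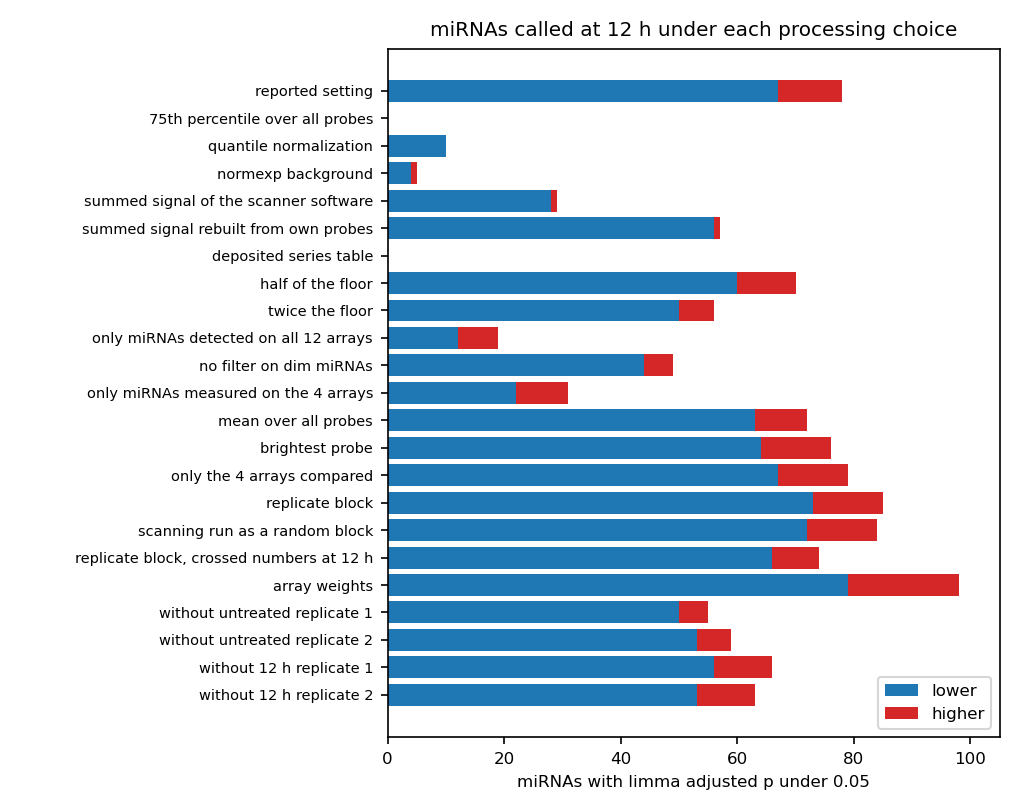
Number of miRNAs with a limma adjusted p under 0.05 (x axis) in the reported setting and in each of 22 alternatives (y axis), lower in blue and higher in red. The reported setting has 67 lower and 11 higher, and scaling on all probes and the deposited table have none.

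The same dose and time in cells lacking ATF6a gave let-7i a change of -0.996. In these cells miR-1224 changed by 2.26 ± 0.26 and miR-19b by 0.68 ± 0.18. The untreated and treated knockout arrays were split over the same slides as in wild type. Drug and slide cannot be told apart there either. The difference between the responses (interaction in limma, adjusted p under 0.05) passed for 17 of 175 miRNAs, 16 of them called in wild type cells. Of the 16, 2 were measured on the 4 wild type arrays. One was miR-434-3p, which stood at -3.96 and -3.84 against -4.05 and -3.81 in the knockout, and whose response was less negative there by 0.99 ± 0.14 (limma, adjusted p = 0.00444). The second was miR-129-3p, a brain-enriched miRNA. In wild type cells it went from -1.87 and -1.93 to -2.94 and -2.99, and in the knockout from -3.84 and -3.80 to -3.57 and -3.43. The responses differed by 1.38 ± 0.34 (limma, adjusted p = 0.0492).

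In wild type cells at 24 h, measured against the same untreated arrays, let-7i stood -1.12 from them, miR-26a -1.50, miR-199a-3p -0.85, miR-19b 1.01 and miR-1224 2.32. The shared controls, and the slide shared by the treated arrays, tie these values to those at 12 h.

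The direction of some falls turned in the authors' deposited table, whose values could be traced. Within 0.001, each of 2034 deposited values was the log2 of the summed signal that the scanner software gives per miRNA. On the 4 arrays between 28.7% and 32.7% of the summed signals of detected miRNAs held the sum of another miRNA, the one before it in the order of names, in addition to the miRNA's own probes. On treated replicate 2 miR-127 had a summed signal of 1415, of which 1373 was the sum of miR-125b-5p and 41.6 the signal of its own probes. miR-127 read 1.32 in the deposited table, and miR-129-3p, next in line, 1.88. The deposited values were also not scaled between arrays, and missing ones were left out. With the summed signals scaled, miR-127 read 0.89 and miR-129-3p 1.44. The levels given above come from spots, not from summed signals.

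Of 12 named miRNAs that fell here and were above 0 in the deposited table, all 12 held such a sum on a treated array. Of these, miR-409-3p, miR-148a, miR-152, miR-130b and miR-495 were above 0 in the deposited table only. Each of them held such a sum on 1 treated array. How far the lack of scaling and the missing values added to the turns was not tested. Rebuilt from their own probes, all 12 were below 0, with miR-127 at -1.59, miR-129-3p at -1.34 and miR-136 at -1.91. With summed signals rebuilt in that way limma called 57 of 204 miRNAs (1 higher, 56 lower), against 29 with the signals as the software gave them and 0 in the deposited table. This check was added after the data were seen.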

How the data were processed

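Total RNA was labelled with Cy3 and hybridised to 1-colour Agilent arrays, per the labels' protocols. The deposited spot intensities are linear processed signals, per the file headers. Version 10.7.1.1 of Agilent Feature Extraction is named by the submitters' processing notes. The authors' series table holds deposited log2 values. No genome build is named in the sources used here.

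Control spots (715 of 13715) and outlier spots were left out, spots of a probe were averaged, and signals were scaled to each array's 75th percentile, taken from the 87 probes that all 12 arrays detected. Scaled values under a floor of 0.0309 were set to it before log2. A probe was well above background where over 0.5 of its spots were. A miRNA is the mean of its probes that passed in both replicates of some group (306 probes). Bounds ("at least") set the brighter mean against the mean of the dim arrays' limits. An array's limit is its lowest detectable signal, or the miRNA's own level there where that was higher. limma 3.58.1 in R 4.3.3 (lmFit, eBayes) was fitted to 6 group means of all 12 arrays, with 6 residual and 1.16 prior degrees of freedom, and was tested on simulated data. normexp (offset 50) used the median spot signal.

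The members, lists, tests and the rule for named miRNAs were chosen with earlier results of these data known. The rule took, among calls without overlap, the 15 largest measured rises and falls, the 10 smallest p of the others, tested members of the lists, strand partners and seed relatives, and the brightest miRNAs. miR-342-3p and miR-882 were taken off the Dlk1-Dio3 list after values were seen. miR-494, miR-376c and the miRNAs high on treated replicate 2 were also chosen for their values. Array names were matched to RefSeq by hand. Same-numbered arrays of the groups did not deviate together (r = -0.46 across 175 miRNAs), so the numbers were not taken as pairs. Alternatives covered scaling, background, summary, floor, filters, probe rule, blocks, weights and each array left out.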

Additional observations from a re-analysis of the deposited data

Results flagged for a closer look

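For miR-129-3p the 12 h response differed between genotypes by 1.38 (knockout minus wild type) by the interaction term in limma (adjusted p = 0.0492). It changed by -1.06 ± 0.24 in wild type cells and by 0.32 ± 0.24 in the knockout. Its level on knockout treated replicate 2, -3.43, lay below that array's lowest signal well above background, -2.94.

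For miR-434-3p the responses differed by 0.99 in the same test (limma, adjusted p = 0.00444). It changed by -1.02 ± 0.10 in wild type and by -0.03 ± 0.10 in knockout cells, whose untreated level was already about that of the treated wild type. On knockout treated replicate 2 it stood at -3.81, below that array's lowest signal well above background, -2.94.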

How the results depend on the processing

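The count of 78 calls became 0 when arrays were scaled on all probes, 10 after quantile normalization, 5 with normexp, 29 with the scanner software's summed signal, 0 in the deposited table (24 at an unadjusted p under 0.05 in limma), 19 with miRNAs detected on all 12 arrays, 49 with no filter and 31 with measured miRNAs only. The summed signal, the deposited table and the 3 filters tested 57 to 650 miRNAs in place of 175. The share of calls that were lower, 85.9%, was 100% after quantile normalization, 96.6% with the summed signal, 63.2% with miRNAs on all 12 arrays and 71% with measured ones. Scaling on all probes moved the median of all miRNAs by -0.29 and normexp by 0.25. Counts from other floors, probe rules, the 4 arrays alone, run as a random block and array weights lay between 56 and 98. Leaving out each array in turn gave 55 to 66. The replicate block gave 85 calls, including all 78, and a block with crossed numbers, added later, 74.

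Directions turned for miR-21 after quantile normalization (0.12), which equalizes the top-ranked probes of all arrays, and for miR-222 with normexp (0.0248). With the summed signal miR-127 read 0.89, miR-129-3p 1.44, miR-652 0.62, miR-300 0.66, miR-136 1.87, miR-100 2.80 and miR-10b 0.69. In the deposited table these read 1.32, 1.88, 1.06, 1.099, 2.30, 3.24 and 1.12, and miR-409-3p 0.78, miR-148a 0.58, miR-152 1.68, miR-130b 1.73 and miR-495 2.28. All 12 held another miRNA's sum on a treated array, and the deposited values were also not scaled between arrays. Of 49 called miRNAs that were followed through the settings, 35 never turned. Signal over background limits the sizes of the 48 calls that were not measured on all 4 arrays.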
